A study of Mus musculus with 187 samples.

Results

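The AXB and BXA recombinant inbred mice are inbred lines derived from crosses between the strains A/J and C57BL/6J. At each autosomal locus a line is homozygous for the A/J or the C57BL/6J allele, so that a gene whose heart expression differs between the parents can be followed through the lines. By convention an AXB line descends from an A/J dam and a BXA line from a C57BL/6J dam, and the dam passes on the mitochondrial genome. All libraries whose strain label starts with AXB or BXA were taken, with A/J and C57BL/6J as parental references: 38 heart RNA libraries, or 20.3% of those of the Hybrid Mouse Diversity Panel series. They comprised 33 libraries of 20 recombinant inbred strains (16 of 9 AXB and 17 of 11 BXA strains, all from the PgnJ colony), 2 of A/J and 3 of C57BL/6J. Both sexes were sequenced for 13 of the strains, males alone for 5 and females alone for 2. A/J had 1 male and 1 female, and C57BL/6J had 2 males and 1 female. Every mouse in these groups ate chow until 8 weeks of age, was then kept for 8 weeks on a diet high in fat and sucrose, and gave its heart at 16 weeks. Each library is given in the labels as the RNA of a single mouse, and no chow-fed group is part of the comparison. The samples therefore show the lines on this diet only, and the p-values below rest on the spread between single hearts.

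Libraries held 35.49 to 80.44 M estimated counts (mean 47.8 ± 8.72 M, SD, n = 38), of which 30.4% to 45.2% came from mtDNA. Cardiomyocyte markers summed to 38800 to 68000 CPM (counts scaled to the same effective library size) in every library, against 0 to 6.5 CPM for lung markers. The closest library over all genes tested was one of the same strain for 30 of the 31 libraries that had such a partner. For the remaining library it was of the AXB19, AXB19a and AXB19b trio. The C57BL/6J male libraries differed by more than counting noise (chi-square per gene of 20.5 over 15251 genes). They were counted as separate mice because the labels give them so, since repeat libraries of the same mouse can differ by more than counting noise too.

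Several libraries stood apart. In the 26 libraries whose strain had both a male and a female, 65 genes fell into a low and a high cluster separated by at least 1.5 on the log2 scale. The A/J male lay between the clusters, 15% to 70% of the way up, at 31 of the 65 genes (47.7%). The A/J female did so at 4 (6.15%), each C57BL/6J library at 1 or 2, and the AXB6 male at 7 (10.8%). Of the 65 genes, 34 were not protein-coding, mostly pseudogenes, and 3 were copies that repeated the values of another of the 65 in every library. Among the 31 protein-coding genes the A/J male lay between at 19 (61.3%) and no other library at more than 3 (9.68%). At 61 of these genes the A/J female and C57BL/6J were in opposite clusters, and there the A/J male lay a median of 26.6% of the way from the A/J female towards C57BL/6J. Pttg1, the securin of the cell cycle, was at 1.70 CPM in the A/J female, 9.80 CPM in the A/J male and 35.1 to 44.9 CPM in C57BL/6J. The A/J male is called by its label throughout, and no reason for its levels was tested.

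**Figure D1:**
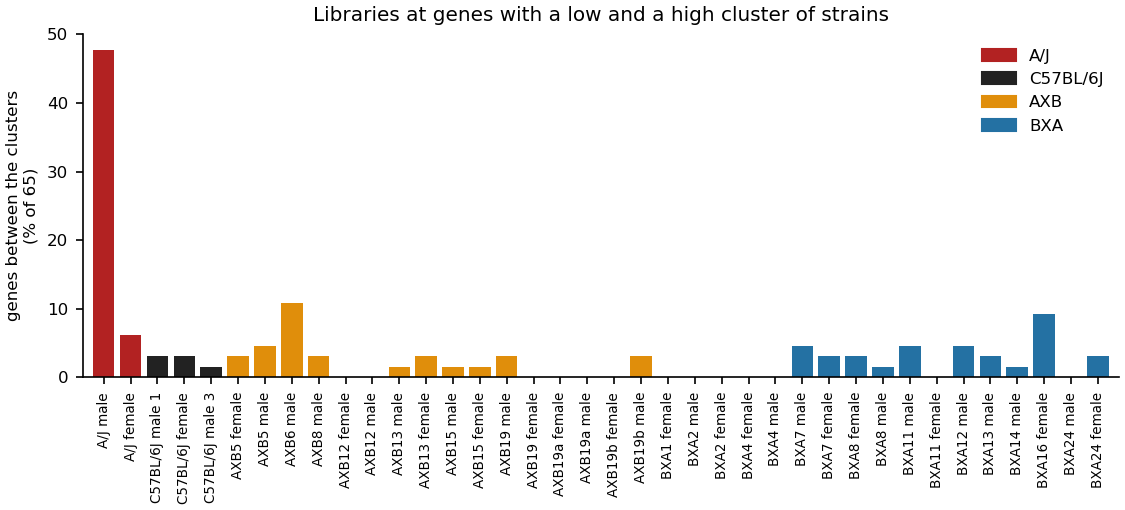
Percentage of the 65 genes with a low and a high cluster of strains at which each library lay between the clusters. Each bar is 1 library, coloured by A/J, C57BL/6J, AXB or BXA. The A/J male stands at 47.7%, and the AXB6 male, next in height, at 10.8%.

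The AXB6 male, the only library of its strain, lay outside the range of all libraries of other strains at 47.4% of the 13047 genes averaging 1 CPM or more. The other 32 recombinant inbred libraries did so at 1.35% to 10.5% (median 3.52%). In AXB6 short transcripts were high and long transcripts low. Relative to the median of all libraries, protein-coding genes with transcripts of at most 2305 bases were shifted by a median of 0.48 on the log2 scale and those with at least 4992 bases by -0.48, a difference of 0.96. This difference ranged from -0.22 to 0.48 in the other 37 libraries, the highest of them being the BXA4 female. Of 77 nuclear oxidative phosphorylation genes, 69 were higher in AXB6 than in every other recombinant inbred library and 2 were lower. Of 36 extracellular matrix genes, 13 (36.1%) were lower and none was higher. Of all 15827 genes tested, 22.3% were higher and 21.4% lower by the same measure. Ryr2, the cardiac calcium release channel with a long transcript, was at 732 CPM in AXB6 and at 1340 to 3160 CPM in the others. Cell type markers moved too. Summed fibroblast markers were at 365 CPM in AXB6, with the next library at 450 CPM, macrophage markers at 36.9 CPM, with the lowest library at 34.3 CPM, and cardiomyocyte markers at 66400 CPM, near the top of their range. The part of transcript length or cell makeup in these values was not tested.

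3 further libraries carried sets of genes far above the rest. The AXB19b male had the adipose genes described with the AXB19 trio below. The BXA7 male had transcripts of secreted liver proteins, with Alb (albumin) at 473 CPM against a median of 1.53 CPM and Apoa1 at 71.3 CPM against 0.381 CPM. The AXB15 female had high interferon-inducible GTPases: Iigp1 was at 764 CPM against a median of 29.8 CPM and Igtp at 564 CPM against 13.6 CPM. The next library was the BXA11 female, at 139.5 CPM for Iigp1 and 149.4 CPM for Igtp.

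The first comparison asked how the hearts of the parents differed. Between A/J and C57BL/6J, 1994 of 15827 genes (12.6%) passed edgeR's quasi-likelihood test at an adjusted p under 0.05. Of these, 1052 (6.65% of genes tested) were higher and 942 (5.95%) lower in A/J, 731 (4.62%) by at least 1 on the log2 scale, and 4011 genes (25.3%) had an unadjusted p under 0.05. Without the A/J male, 1447 genes (9.14%) were called, 786 (4.97%) higher and 661 (4.18%) lower, and 1306 of them were also called with it. The split into higher and lower depends on the scaling. By library totals in place of TMM, 3415 genes were called and 85.6% of them were higher in A/J, against 52.8% here. The median of all genes moved by 0.19. List medians are therefore set beside the median of all genes, which was -0.01.

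Several genes of the cardiac stress response and fetal gene programme were among those higher in A/J. Myh7 encodes the slow β-myosin heavy chain that adult mouse hearts express little of. It was at 1690 CPM in the A/J male and 2390 CPM in the A/J female, against 263, 220 and 265 CPM in C57BL/6J (log2 difference 3.04 ± 0.27 SE, edgeR adjusted p = 1.39e-07). Skeletal α-actin, Acta1, was at 938 and 1760 CPM in A/J and at 153.7, 22 and 204 CPM in C57BL/6J (3.64 ± 0.54, edgeR adjusted p = 9.66e-05). Nppb, which encodes B-type natriuretic peptide, was at 121.5 and 223 CPM against 26.5 to 47.3 CPM (2.19 ± 0.45, edgeR adjusted p = 0.00221). Ankrd1, a stretch-responsive sarcomere protein gene, was at 1200 and 1190 CPM against 157.6 to 663 CPM. For each of these 4 genes the parents did not overlap. Nppa did not pass the test (0.71 ± 1.17) and its parental libraries overlapped. It is also an atrial gene, and the summed atrial markers ranged from 270 to 2080 CPM in A/J and from 245 to 1390 CPM in C57BL/6J. Myh7 and Acta1 are counted in both the cardiac stress list and the sarcomere list. Of 16 cardiac stress genes tested, 5 were higher and 1 was lower in A/J (median 0.63), and the same counts held by DESeq2. Without the A/J male 5 were higher and none lower. Of 25 sarcomere genes 4 were higher (3 without the A/J male) and none was lower. Here and for the lists below, 6.65% of all genes tested were called higher and 5.95% lower in A/J (4.97% and 4.18% without the A/J male).

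Of 36 extracellular matrix genes, 11 were higher in A/J, beside 6.65% of all genes, and none was lower (median 0.41). Without the A/J male 7 were higher, by library totals 19 and by DESeq2 15. Of all 15827 genes, library totals called 2922 higher in A/J and DESeq2 1129. Ccn2, a matricellular growth factor, was at 129.5 and 145.1 CPM in A/J and at 25.5, 33.8 and 37.1 CPM in C57BL/6J (2.11 ± 0.24, edgeR adjusted p = 5.56e-06). Col8a1 and Thbs4 rose by 1.03 and 1.63 on the log2 scale, while the main fibrillar collagens Col1a1 (0.44 ± 0.21) and Col3a1 (0.46 ± 0.23) did not pass. Summed fibroblast markers were 746 to 827 CPM in A/J and 564 to 706 CPM in C57BL/6J. In whole hearts, more cells of a type and more RNA per cell cannot be told apart. Among 32 calcium handling and ion channel genes, 7 were higher (6 without the A/J male) and none was lower, among them Scn4b (1.31 ± 0.18), which encodes an auxiliary subunit of voltage-gated sodium channels.

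Transcripts of the mitochondrial genome were lower in A/J. Of 13 mtDNA-encoded genes, 11 fell and none rose (median -0.57). Without the A/J male 6 were lower, and by library totals 11. The furthest fall was in mt-Nd3 (-1.22). Reads shared between mtDNA and similar nuclear sequences were not examined. Cytochrome b, mt-Cytb, was at 31500 and 24000 CPM in A/J and at 44500, 36000 and 48000 CPM in C57BL/6J, without overlap (-0.61 ± 0.16, edgeR adjusted p = 0.017). Of 77 nuclear oxidative phosphorylation genes, 4 were lower and none was higher, a share near the 5.95% of all genes, and by library totals 4 were higher and 1 lower. Without the A/J male 1 was lower. Over all 15827 genes, library totals called 2922 higher and 493 lower in A/J. Of 33 fatty acid oxidation and uptake genes 5 were lower, among them Ucp3 (-1.48 ± 0.42) and Angptl4 (-2.06 ± 0.58). By library totals 3 were higher and 5 lower, and without the A/J male 3 were lower. In the antigen presentation list 7 of 26 genes were lower and 2 higher in A/J, against 4 and 2 without the A/J male. H2-Eb1, an MHC class II chain, was at 11 and 6.81 CPM in A/J and at 25.6 to 46.2 CPM in C57BL/6J. How well reads of A/J alleles matched the reference was not tested for these or other genes.

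Among protein-coding genes with the largest parental differences were several with a low level in a single parent. Gbp2b, a guanylate-binding GTPase, was at 5.51 and 15.6 CPM in A/J and at no more than 0.309 CPM in C57BL/6J. Fmn1, formin 1, was at 63.4 and 75.0 CPM in A/J and at 1.66 to 2.26 CPM in C57BL/6J (5.09 ± 0.21, edgeR adjusted p = 1.98e-12). Fam19a2, Ifi202b, H2-Q2, Gm11127 and Tent5b were likewise higher in A/J, by 4.45 to 5.97 on the log2 scale. Gm10184, Gm10260, Hmga1b, AK157302 and Eno1b were also on this list. Hmga1b and Eno1b are near-identical copies of Hmga1 and Eno1, and kallisto may divide reads among such copies, so levels of these genes are uncertain. Lower in A/J were Rab6b, a Golgi GTPase (-4.07 ± 0.48), Eps8l1 (-4.40 ± 0.67), Gm3055, Isoc2b, Unc5a, Fggy, Klra9, Ftl1-ps1 and Hs3st1, a heparan sulfate sulfotransferase (-2.79 ± 0.22). For several genes lower in A/J the size of the difference depended on the A/J male. Gm3055, Klra9 and Ftl1-ps1 were further apart without it. Gvin1, a very large interferon-inducible GTPase, changed from -3.22 to -14.6 without it, where the remaining A/J library had no count. Pttg1 changed from -2.88 to -4.57 and Nxpe4 from -3.00 to -5.44.

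The next question was how these differences segregated. Of the autosomal genes, 461 passed the parental test with a log2 difference of at least 1 and a mean of at least 1 CPM, 247 of them higher and 214 lower in A/J. They comprised 367 protein-coding genes, 66 processed pseudogenes and 28 of other types. Each strain was placed on a log2 scale running from C57BL/6J (0) to A/J (1) and was called nearer to A/J above 0.5. The scale uses the parental levels, but the choice of genes was not free of the lines. The mean CPM was taken over all 38 libraries, and the spread in the parental test came in large part from the males and females of the lines, so agreement between the sexes at these genes is a description. The male and female libraries of a strain received the same call at 87.6% to 93.3% of these genes (mean 90%). For the genes that differ by at least 2 on the log2 scale, the same call was made at 96.2%.

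Of the 461 genes, 405 had 5 to 15 of the 20 strains nearer to A/J, with a median of 10. None had all strains nearer to C57BL/6J and 3 had all nearer to A/J. These counts, and those for single genes below, take AXB19, AXB19a and AXB19b as 3 strains, though their calls were mostly the same. Of the 9220 strain levels, 2090 (22.7%) were intermediate (0.25 to 0.75), and 22.1% of the genes had no intermediate strain. Neighbouring genes were called alike more often than distant ones. Pairs of genes on the same chromosome under 2 Mb apart received the same call in a mean of 72.2% of units (strains, with the AXB19 trio as 1 unit), pairs 2 to 10 Mb apart in 64.2%, pairs 10 to 30 Mb apart in 56.6%, pairs further apart in 52.6%, and pairs on different chromosomes in 50.9%. Without the A/J male the set held 475 genes, 391 of them shared, with 26.4% of levels intermediate and the same call for both sexes at 90.6%.

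**Figure D2:**
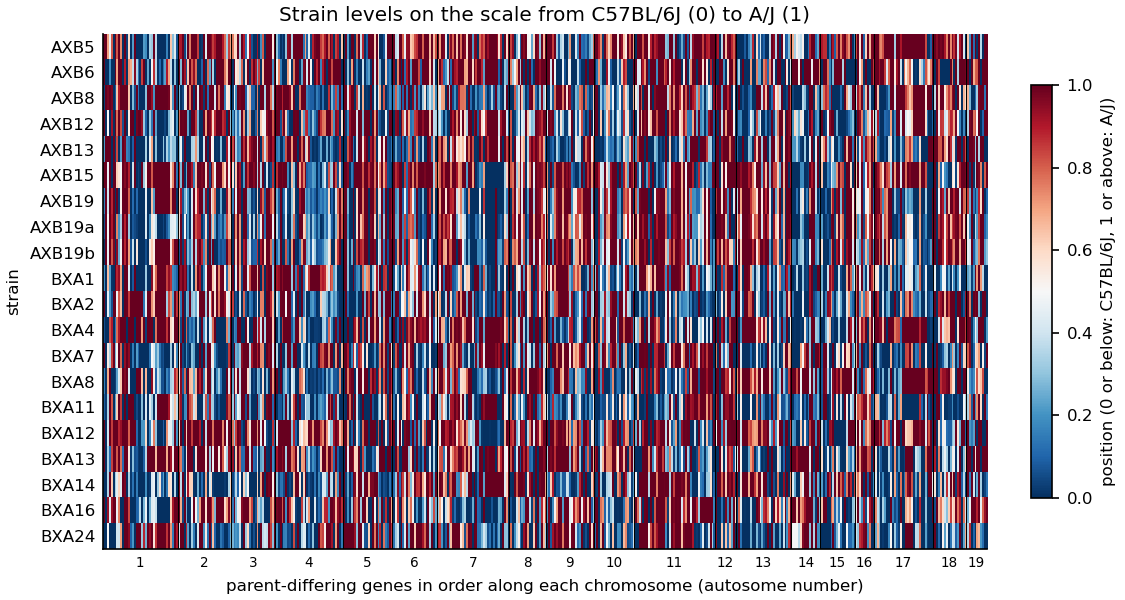
Level of each strain (rows) at the 461 genes that differed between the parents (columns, in order along autosomes 1 to 19), on a log2 scale where 0 is C57BL/6J (blue) and 1 is A/J (red). Values below 0 and above 1 take the end colours. Runs of 1 colour within a chromosome and the alike rows of AXB19, AXB19a and AXB19b can be seen.

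The share of the 461 genes at which a strain was nearer to A/J ranged from 37.3% in BXA11 to 66.4% in AXB5. AXB15 (65.3%) and BXA12 (63.6%) were also high, and BXA24 (42.5%) and BXA2 (43.6%) low. AXB6 was at 57.9%. BXA11 was also lowest without the A/J male (36.8%), but then AXB15 (63.4%) was above AXB5 (61.3%), and AXB13, BXA1 and BXA14 (42.7% to 43.2%) were below BXA2 (44.2%). With the AXB19 trio as 1 unit, AXB strains averaged 56.5% ± 7.39 (SD, n = 7) and BXA strains 50% ± 7.34 (SD, n = 11), a difference of 6.45 percentage points that did not pass an exact permutation test (two-sided p = 0.0902, and p = 0.101 without the A/J male).

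Some genes fell into a low and a high class of strains. Myh7 (chr14:54970684-54994626, GRCm38) was at 139.2 to 428 CPM in 13 strains and at 1690 to 4110 CPM in 7, namely AXB6, BXA7, BXA8, BXA13, BXA14, BXA16 and BXA24. The low class spans the C57BL/6J level and the high class starts at the level of the A/J male. In each strain with both sexes the male and female were in the same class. AXB6 had the highest value, 4110 CPM, and without it the high class holds 6 strains. The nearest gene of the 461, Ppp1r3e, 0.098 Mb away, received the same call as Myh7 in 20 of 20 strains, and Ang, 3.88 Mb away, in 18. Acta1 did not form classes: it ran from 64 to 5150 CPM (median 402 CPM) with 10 strains intermediate, and AXB6 again was highest. Nppb (23.6 to 444 CPM) and Ankrd1 (418 to 2610 CPM) were graded as well, with AXB6 highest.

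Fmn1 was at 1.37 to 3.36 CPM in 9 strains and at 30.8 to 96 CPM in 11, the lowest of the latter being AXB6. Baiap2l1, which encodes an actin-bundling membrane adaptor, was at 11.1 to 17.4 CPM in 6 strains and at 157.9 to 407 CPM in 14. The classes did not overlap, and no strain had its male and female in different classes. By the measure used for the 65 genes, Fmn1 in AXB6 lay between the clusters, 38.6% of the way up. The high class of Baiap2l1 reached above A/J, which was at 150.2 and 183.1 CPM.

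Pttg1 was at 1.34 to 3.05 CPM in 14 strains and at 31.5 to 56.9 CPM in 6 (AXB13, AXB15, BXA2, BXA4, BXA8 and BXA11). Cyfip2, 2.77 Mb away on chromosome 11, received the same call in 20 of 20 strains. Hs3st1 was high in 4 strains (27.2 to 36.1 CPM) and low in 16 (3.23 to 7.05 CPM). Ephb1, an ephrin receptor, was at 2.64 to 5.01 CPM in 10 strains and at 15.5 to 32.9 CPM in 10, the lowest of the latter, BXA16, being 52% of the way up. Gvin1 was at 0 to 1.13 CPM in 8 strains and at 22.9 to 94.1 CPM in 12, and the Trim30d, Trim34b and Trim12a genes near it shared its call in 19 of 20. Near genes did not always follow: Rab6b, 1.19 Mb from Ephb1, shared its call in 12 strains and Rpl29, 4.51 Mb away, in 18. Sorcs2, 3.6 Mb from Hs3st1, and Olfr1388, 6.02 Mb from Pttg1, each shared the call in 9. The A/J male levels of Gvin1 and Pttg1 (12.3 and 9.8 CPM) fell in the gap between the classes.

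Genes known to differ in copy number or splicing between mouse strains also split. Alad, an enzyme of haem synthesis, was at 23.1 to 30.5 CPM in 9 strains and 51.8 to 123.6 CPM in 11, and its neighbour Hdhd3 was called alike in all 20. Glo1, a methylglyoxal-detoxifying enzyme, was at 62.8 to 81.3 CPM in 13 strains and 133 to 207 CPM in 7. The cardiac kinase gene Tnni3k was at 14 to 24.9 CPM in 16 strains and 73.8 to 102.3 CPM in 4 (AXB15, BXA2, BXA12 and BXA13). Of the nearest protein-coding genes of the 461, Gipc2, 2.69 Mb away, was called alike in 9, Spata1, 8.33 Mb away, in 18 and Gbp2b, 12.2 Mb away, in 17.

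**Figure D3:**
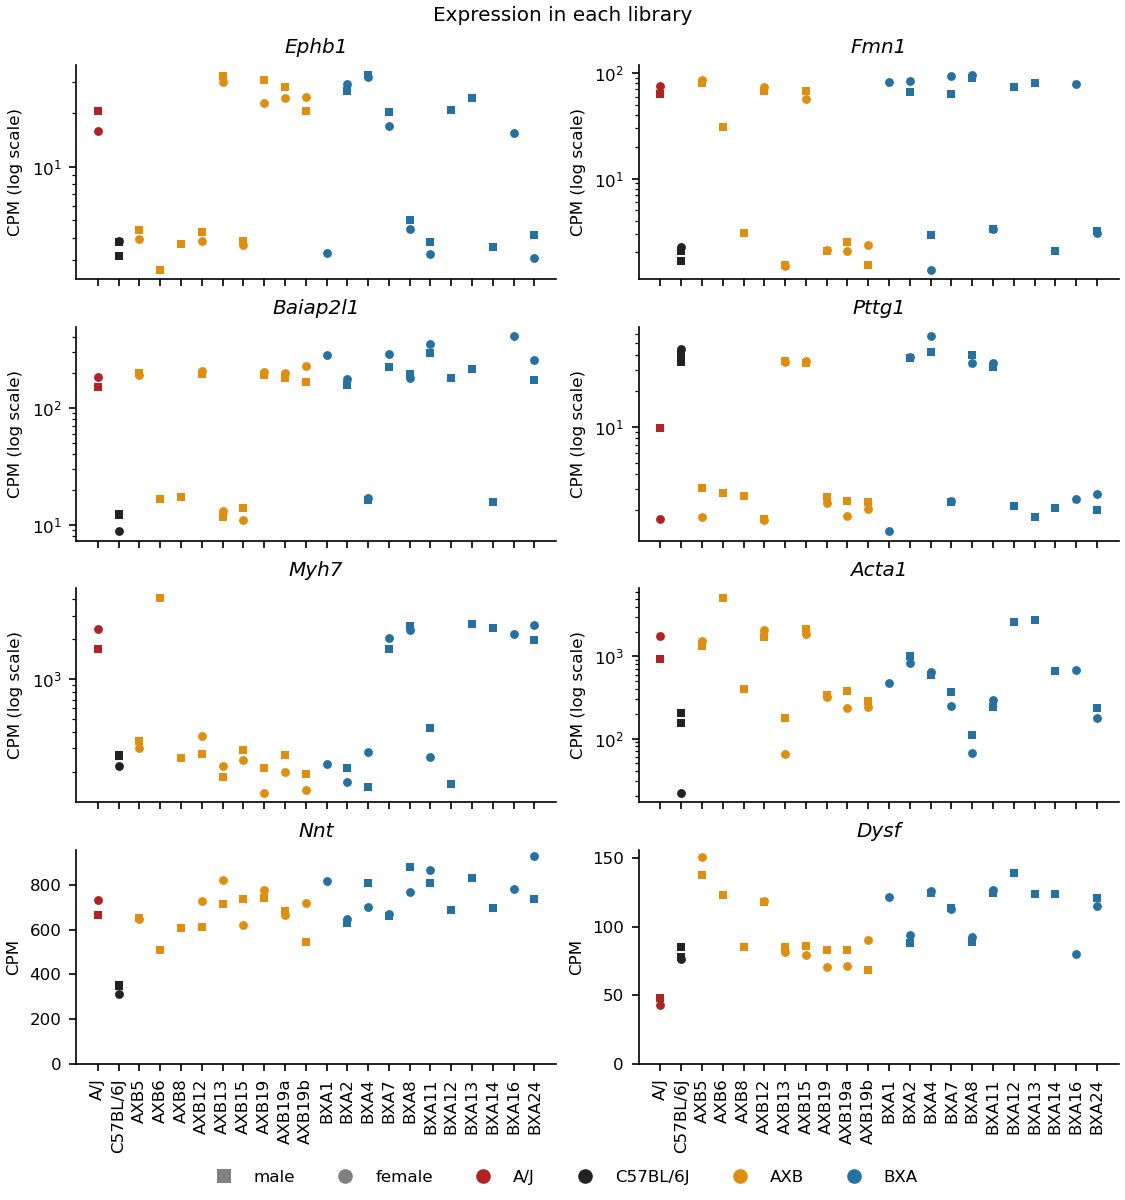
CPM of 8 genes in each of the 38 libraries, 1 column per strain, squares for males and circles for females, on a log axis for Ephb1, Fmn1, Baiap2l1, Pttg1, Myh7 and Acta1 and from 0 for Nnt and Dysf. The first 5 genes show a low and a high class that do not overlap, with AXB6 for Fmn1 and BXA16 for Ephb1 at the bottom of the high class, Acta1 is graded, and for Nnt and Dysf a parent stands below the lines.

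A few genes differed between the parents without segregating. Nnt, the mitochondrial proton-pumping transhydrogenase, of which C57BL/6J is known to carry a deletion, was at 665 and 735 CPM in A/J and at 311, 349 and 351 CPM in C57BL/6J, summed over its 2 identifiers. All 33 recombinant inbred libraries were at 509 to 928 CPM, above every C57BL/6J library. Wdfy1, an endosomal adaptor of Toll-like receptor signalling, was at 23.9 and 30.7 CPM in A/J, 6.49 to 7.67 CPM in C57BL/6J and 21.9 to 33 CPM in the lines. Rab4a, a GTPase of endosome recycling, was at 8.99 and 9.14, 2.86 to 3.98 and 7.10 to 13.5 CPM in that order. For Dysf, the membrane repair protein dysferlin, A/J was apart instead: it was at 43.2 and 47.7 CPM, C57BL/6J at 76.7 to 85.1 CPM and the lines at 68.1 to 150.6 CPM. These 4 genes were chosen after their values were seen. Of the 461 genes, 7 had 19 or 20 strains nearer to A/J and none had 0 or 1.

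The variation among the lines was then tested with the parents left out. A strain term was called for 7501 of 15827 genes (47.4%, and 56.7% at an unadjusted p under 0.05). Without AXB6, whose single library stood apart, 4637 genes (29.3%) were called, all of them among the 7501. Leaving out any of the other 32 libraries gave 6473 to 7797. Of the genes called between the parents, 82.8% were strain-called, against 42.3% of those not called between them. Without AXB6 these shares were 72.4% and 23.1%. Both tests take their spread in large part from the same males and females of the lines, so genes with little spread are favoured in both, and the shares are a description. Of the 461 parent-differing genes, 431 were called, and 415 without AXB6. Conversely, 22% of strain-called genes (1652 of 7501) differed between the parents, and without AXB6 1443 of 4637 did.

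Among the protein-coding genes with the smallest p-values were Gm10260 (F = 288, edgeR adjusted p = 2.86e-13), AK157302, Pttg1, Ephb1, Fmn1, Alad, Hs3st1, Baiap2l1 and Mndal, and each of them was called under every alternative run. The share of variance between strains, computed as an intraclass correlation over the 13 strains with both sexes and so without AXB6, had a median of 0.424 over all genes, 0.742 over genes called between the parents and 0.871 over the 461, with the same limit.

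The shares of strain-called genes by list depended on AXB6 to different degrees. Among nuclear oxidative phosphorylation genes 69 of 77 (89.6%) were called, but 44 (57.1%) without AXB6. Fatty acid oxidation fell from 26 to 18 of 33 and calcium handling from 17 to 10 of 32. The mtDNA-encoded genes were called at 13 of 13, and 11 without it. Cardiac stress genes were called at 13 and 12 of 16, antigen presentation at 21 and 20 of 26, extracellular matrix at 27 and 22 of 36, and the core clock at 14 and 12 of 18. None of the 5 blood and 5 atrial markers was called. These shares stand beside the 47.4% and 29.3% of all genes.

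Of the genes called among strains but not between the parents (5445 with a mean of at least 1 CPM), 1105 had a strain more than 1 beyond both parents on the log2 scale, and 67 had at least 4. Without AXB6 the corresponding numbers were 2911, 309 and 47. A group of 12 strain-called genes, 11 of them not called between the parents, was chosen after its values were seen. It comprises enzymes of serine synthesis and mitochondrial folate metabolism and of asparagine and proline synthesis, together with transcription factors and regulators of the amino acid stress response. This response is known to run through ATF4, a factor whose translation rises when amino acids are short or mitochondria are impaired.

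Mthfd2, the mitochondrial folate enzyme, was at 32.8 CPM in the BXA7 male, 67 CPM in the BXA7 female, 47.9 CPM in the BXA11 male, 83.0 CPM in the BXA11 female and 101.97 CPM in the BXA16 female. The other 28 lines' libraries were at 1.25 to 12.9 CPM (median 2.25 CPM), A/J was at 2.18 and 13.2 CPM, and C57BL/6J at 1.82 to 3.78 CPM. Asns, asparagine synthetase, was at 10.9, 15.8, 16.8, 44.8 and 43.3 CPM in the same order, against 0.976 to 4.88 CPM. Atf5, a transcription factor of the same response, was at 186.2, 209, 338, 501 and 568 CPM. The other libraries were at 34.7 to 106.6 CPM apart from AXB6, which was next above them. In these 3 genes the BXA7, BXA11 and BXA16 libraries did not overlap the others.

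Phgdh, the entry enzyme of serine synthesis, was at 5.36 to 23.4 CPM in these 5 libraries against 0.533 to 3.61 CPM. Psat1, Pycr1, Trib3 and Aldh1l2 did not overlap either, so that 8 of the 12 genes were above every other line's library. Of all 15827 genes tested, 22 (0.139%) were, but the 12 were chosen for these values and nothing is read from the comparison. Without the BXA7 male the same 8 genes were separate, against 38 (0.24%) of all genes. Shmt2, Chac1, Atf4 and Gdf15 overlapped. Atf4 itself was at 63.3 to 196 CPM against 35.4 to 68.7 CPM, the highest of the latter being AXB6. Atf5 was called between the parents (0.74 ± 0.19). The BXA7 male carried the liver transcripts, and 5 of the 12 genes (Shmt2, Chac1, Trib3, Atf4 and Gdf15) were higher in it than in the BXA7 female, while 7 were lower. Alb was at 0.74 CPM in the BXA7 female, 30.2 and 14.1 CPM in the BXA11 male and female, and 0.806 CPM in the BXA16 female. Among the other lines the AXB5 female was above the BXA11 libraries. The part of liver RNA in these values was not tested.

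**Figure D4:**
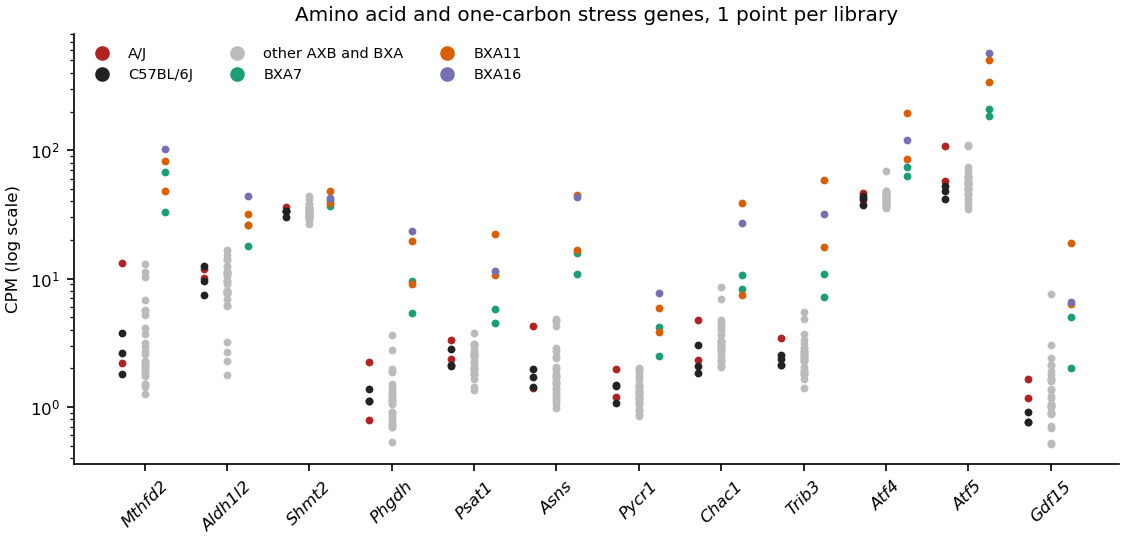
CPM on a log axis of 12 genes of folate, serine and asparagine metabolism and of the amino acid stress response, 1 point per library, with A/J and C57BL/6J at the left of each gene, the other AXB and BXA libraries in grey and BXA7, BXA11 and BXA16 at the right. For 8 genes the coloured points at the right lie above every grey point.

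For this group of genes, the RefSeq promoters (GRCm38.p6, from 250 bases before to 50 after the start) were searched for TGATGNAA on either strand, the core of the sites that ATF4 binds with C/EBP partners. Of the 12 genes 11 matched the table, with 14 promoters, and 4 promoters of 4 genes had the motif. It was in 1304 of all 32851 promoters of the same length (3.97%) and in a promoter of 4.51% of the 27025 genes in the table. A match is a description of letters and not evidence of binding. The 60 bases around each match are shown 5′ to 3′ on the gene's strand with the motif in capitals, at chr6:7693199-7693258 (-) for Asns, chr11:120643818-120643877 (-) for Pycr1, chr2:119351023-119351082 (+) for Chac1 and chr2:152344013-152344072 (-) for Trib3. In Asns and Pycr1 it lies on the gene's strand and in Chac1 and Trib3 on the opposite one.
Asns: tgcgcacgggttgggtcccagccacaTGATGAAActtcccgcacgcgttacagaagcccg
Pycr1: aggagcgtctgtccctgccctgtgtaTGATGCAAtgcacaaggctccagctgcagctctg
Chac1: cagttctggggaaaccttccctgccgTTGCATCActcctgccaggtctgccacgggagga
Trib3: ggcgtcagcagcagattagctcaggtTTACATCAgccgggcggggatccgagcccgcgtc

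AXB19, AXB19a and AXB19b share a strain number, and their closeness was measured against other pairs of lines. Over the 13 strains with both sexes, 14 genes (0.0885%) were called between AXB19 and AXB19a, 16 (0.101%) between AXB19 and AXB19b and 25 (0.158%) between AXB19a and AXB19b. The other 75 pairs of strains had 285 to 3233 called genes (median 1048). Those with BXA4 had 967 to 3233, and the part of transcript length in these counts was not tested. At the 461 parent-differing genes the trio's pairs received the same call at 85.7% to 88.5%, and the other pairs at 42.1% to 66.6% (median 53.4%). The median absolute log2 difference over all genes did not separate them: it was 0.111 to 0.143 within the trio and 0.116 to 0.263 for the other pairs. The trio's agreement lay near the 90% between the male and female of a strain. Across the 3 strains together 62 genes (0.392%) were called, and 1312 (8.29%) had an unadjusted p under 0.05.

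**Figure D5:**
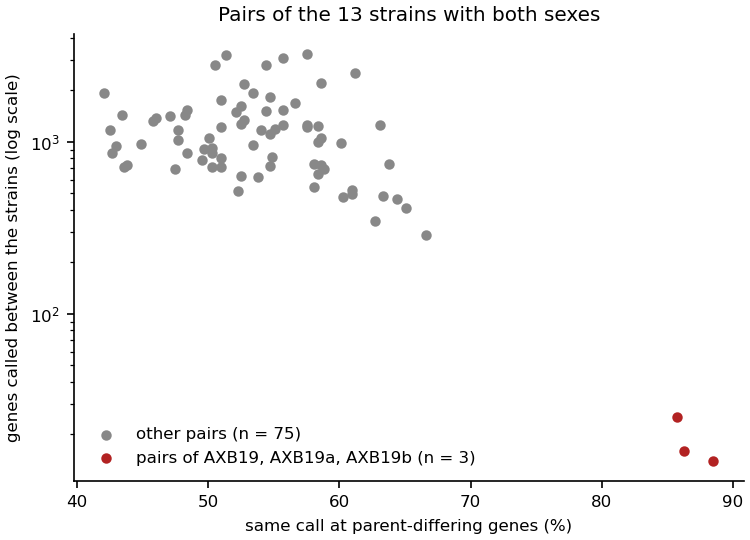
Genes called between 2 strains (log axis) against the percentage of the 461 parent-differing genes with the same call, for the 78 pairs of the 13 strains with both sexes. The 3 pairs of AXB19, AXB19a and AXB19b (red) lie at 14 to 25 genes and 85.7% to 88.5%, apart from the other 75 pairs.

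The called genes were concentrated in a stretch of chromosome 1 and in the adipose genes of a single library. On chromosome 1, 17 of the 62 lay between positions 171173262 and 191623688 (20.5 Mb), where 161 genes were tested. In 15 of the 17, AXB19a was outside the range of the other 4 libraries. Of the 14 parent-differing genes in that stretch, AXB19 was nearer to A/J at 12, AXB19b at 14 and AXB19a at 1. The interval includes the Ifi200 cluster of interferon-inducible DNA sensors. Mndal was at 0.936 and 1.20 CPM in AXB19, 1.29 and 1.14 CPM in AXB19b and 23.7 and 19.5 CPM in AXB19a, where C57BL/6J was at 17.5 to 23.9 CPM (edgeR adjusted p = 1.31e-08). Ifi202b went the other way, at 2.91 to 4.55 CPM in AXB19 and AXB19b and at most 0.0173 CPM in AXB19a. Ifi213, Ifi208, Ifi211, Sccpdh and Ints7 were among the called genes of the stretch.

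Outside it, Hopx, a homeodomain-only regulator of cardiac growth on chromosome 5, was at 209 and 214 CPM in AXB19, 81.7 and 91.5 CPM in AXB19a and 75.3 and 61.7 CPM in AXB19b (edgeR adjusted p = 0.000591). It was not called between the parents (-0.46 ± 0.18, edgeR adjusted p = 0.104). The neighbouring genes Srp54a and Fam177a near 55 Mb of chromosome 12 were higher in AXB19b than in AXB19 and AXB19a. Srp54b beside them was at 26.3 CPM in the AXB19b male, 11.4 CPM in the AXB19b female and 4.70 to 6.59 CPM in the other 4. It did not pass between AXB19 and AXB19b (edgeR adjusted p = 0.0695), nor in the trio without the AXB19b male. Fam177a was at 22.7 and 24.2 CPM there and at 11.1 to 12.5 CPM in the other 4 libraries, with C57BL/6J at 21.7 to 23.3 CPM. At 370 of the 461 parent-differing genes all 3 strains were on the same side, and of the other 91, 45 were more than 0.5 apart, 13 of these on chromosome 1.

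In 25 of the 62 genes the AXB19b male was more than 2 times above every other library of the trio. Fasn, fatty acid synthase, was at 1350 CPM in that male, 74.8 CPM in the AXB19b female and 16 to 151.96 CPM in the 32 AXB and BXA libraries other than that male. Scd1 was at 3200 CPM against 76.4 CPM in the female, and Ucp1, the thermogenic protein of brown fat, at 489 CPM against 5.06 CPM. Adipose markers summed to 1110 CPM in this library and 247 to 421 CPM in the other 37. Brown adipose markers summed to 1130 CPM against 473 to 746 CPM. Cpt1b of that list was not raised, at 505 CPM against 458 to 712 CPM in the other 32 AXB and BXA libraries. Cardiomyocyte markers summed to 38800 CPM in this library against 44000 to 68000 CPM. Lung markers were at 6.5 CPM in it and at most 0.773 CPM in the other 37. Of 10 lipogenesis genes, 4 were called in the trio. Without the AXB19b male 19 genes (0.12%) were called. A fall of this size was not particular to it. Leaving out any single AXB19 or AXB19a library lowered the count at least as much, and leaving out the AXB19b female raised it. Mndal, Ifi202b, Ifi213, Ifi208, Hopx, Ints7, Fam177a, Ifi211 and Sccpdh were among the genes called without the AXB19b male, and Fasn, Acaca and Napsa were not. The part of adipose or other tissue in the difference was not tested.

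The direction of the cross was compared over 18 units, 7 AXB and 11 BXA. Of 15827 genes 1 passed (0.00632%), higher in AXB (0.00632%), and none was lower (0.0%). At an unadjusted p under 0.05 there were 1882 genes (11.9%). The gene was Gm28438, annotated as an unprocessed pseudogene (chr1:24612775-24613119), with a log2 difference of 8.15 (edgeR adjusted p = 0.00234). It was at 285 and 563 CPM in A/J and 0.954 to 7.86 CPM in C57BL/6J. AXB5, AXB8, AXB13, AXB15 and the AXB19 trio were at 434 to 1160 CPM, while every BXA strain and AXB6 and AXB12 were at 0 to 4.74 CPM. The high class held 7 of 9 AXB strains and none of the 11 BXA strains. The sequence of Gm28438 was not compared with mtDNA or with other genes, and the origin of its reads was not tested. The mean log2 CPM of the 13 mtDNA-encoded genes was 14.24 ± 0.199 in AXB and 14.38 ± 0.205 in BXA (SD, n = 7 and 11), and the difference of -0.15 did not pass an exact permutation test (two-sided p = 0.157). By library totals the difference was -0.06 (exact permutation p = 0.181), and with AXB19, AXB19a and AXB19b as 3 units it was -0.17 (exact permutation p = 0.094). By DESeq2 1.11% of genes were called. Without AXB6 0.657% were called by edgeR, 65 genes higher and 39 lower in AXB, so the count of 1 depends on that library.

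Male and female libraries of the lines were compared with strain as a block. Of 15827 genes 189 (1.19%) were called, 0.714% higher and 0.48% (76 genes) lower in males, and 2403 (15.2%) had an unadjusted p under 0.05. Without the strain block 40 were called, with each strain left out 97 to 211, and by DESeq2 392. Of the autosomal protein-coding genes the most male-biased was C7, a terminal complement component (2.01 ± 0.15, edgeR adjusted p = 4.96e-07), followed by Hamp, the iron hormone hepcidin (1.60 ± 0.30, edgeR adjusted p = 0.0151), Lvrn, Penk (1.36 ± 0.12) and Ifi205. The largest female bias was in Col14a1, a fibril-associated collagen (-0.68 ± 0.09, edgeR adjusted p = 0.00128), with Duox1, Lrrc55, Dna2 and Adamtsl2. None of the 77 nuclear oxidative phosphorylation genes (median -0.02) and none of the 13 mtDNA-encoded genes (median -0.02) passed between the sexes in these lines. Atrial, blood and macrophage markers had median log2 differences of 0.91, 0.39 and 0.31 towards males (0.00 over all genes), and none of these 5, 5 and 6 genes passed. Their part in the sex differences was not tested.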

How the data were processed

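Heart mRNA libraries were sequenced by the authors as paired reads and quantified with kallisto 0.46 on GRCm38.p6, per the submitters' processing notes. All strains were quantified on this same reference, and loss of reads from alleles that differ from it was not tested. The deposited estimated counts and TPM (a length-corrected abundance with a fixed sum per library) were given per Ensembl gene for 36558 genes, and 34.3% of the estimated counts were not whole. How transcripts were summed to genes is not given in the sources used here.

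Counts of the 38 libraries were rounded. Genes were kept by filterByExpr with sex as the group (15827 genes), TMM factors were computed, and models were fitted with edgeR 4.0.16 (R 4.3.3; quasi-likelihood F tests, Benjamini-Hochberg adjusted p under 0.05) with a term per strain and sex. Cross direction was tested on counts summed per strain, with AXB19, AXB19a and AXB19b as 1 unit. Males and females were paired by strain. Strain positions used log2 CPM (prior count 2). Symbols and coordinates came from GENCODE M21; identifiers outside it held 0.476% of counts. DESeq2 1.42.0 and limma-trend 3.58.1 on log2(TPM + 1) were among the alternatives. Named genes were the 12 protein-coding genes with the largest called difference in each direction for the parents (mean of 1 CPM or more, parents not overlapping, mtDNA and Y left out), the 10 with the smallest p for strains and trio, the 5 autosomal ones in each direction for sex, members of gene lists past the threshold, and genes marked as chosen after their values were seen. The members and lists were chosen with earlier results of these data known. Scripts were tested on simulated data. Tables and plots used pandas 2.3.3, Python 3.11.15, matplotlib 3.10.9, scipy 1.17.1 and numpy 2.4.6. A few genes that met these rules are not reported here.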

Additional observations from a re-analysis of the deposited data

How the results depend on the processing

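Counts of genes depended on processing more than directions did in the tests that have a direction (parents, cross and sex). Of the genes named by rank in those tests, none reversed under any alternative run. The strain and trio tests have no direction and could not reverse. Members of lists were counted by list and not followed singly. Calls were lost for 10 of 288 parental values, 0 of 400 strain values, 17 values for the trio and 34 for sex. The parental count of 1994 was 1.71 times as large by library totals (3415 genes), 2.60 times by limma-trend on TPM (5178), 0.631 times with all libraries of the series in the fit (1259) and 0.343 times with the 5 parent libraries alone (683). Leaving out each parent library gave 0.406 (without the A/J female) to 0.948 times. Leaving out each recombinant inbred library gave 0.618 (without AXB6) to 1.04 times the 7501 strain-called genes. The trio's 62 genes changed to 1.61 times by library totals, 3.95 by DESeq2, 2.24 with no filter and 0.403 by limma-trend, and to 0.194 (without the AXB19a male) to 5.95 times (without the AXB19b female) with each of its libraries left out, where the lone library of a strain is assumed to vary like the others. Between AXB and BXA, 0.0126% of genes were called by library totals, 1.11% by DESeq2 and 0.0% by limma-trend, and 0.00632% to 0.657% (without AXB6) on leaving out each unit, with 10 genes without BXA12. The 189 sex-biased genes changed to 2.07 times by DESeq2, 0.429 by limma-trend, and 0.513 (without AXB19a) to 1.12 times (without AXB19b) with each strain left out. Males and females were paired by strain, and without that replicate block the count was 0.212 times as large (40 genes). The same call by both sexes was made at 96.2% for differences of at least 2 (0.328 times as many genes) and at 87.9% on TPM. Between AXB19, AXB19a and AXB19b the mean was 86.8%, with 92.9% for differences of at least 2 and 84.2% for protein-coding genes. The causes of these shifts were not tested. The settings without the A/J male for the parent-differing genes and without the BXA7 male for the amino acid stress genes were chosen after seeing the data. Genes near 0 CPM in a group have uncertain folds at these depths.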
